A study of Mus musculus with 12 samples.

Results

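The genes described here encode the nuclear subunits of the oxidative phosphorylation machinery. They were chosen by gene symbol alone, as all genes named Nduf followed by a, b, c, s or v and a number, Sdha to Sdhd, and names starting with Uqcr, Cox4 to Cox8 or Atp5. The pattern matched 87 symbols, of which 1 pseudogene was left out, so 86 of the 35652 genes in the tables were followed. By name they fall into 39 genes of complex I, 4 of complex II, 8 of complex III, 18 of complex IV and 17 of complex V. Ndufa4 is counted under complex I by its name and is now known as a subunit of complex IV. The pattern does not reach Ndufab1, Cyc1 and Cycs, which are reported as a separate list.

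The 12 mouse libraries, 2 in each of 6 groups, were made with SC3-seq, a method that reads the 3′ end of each amplified transcript. The cultured groups are germline stem cells (GSCs), self-renewing male germline cells grown as a line that the labels call Acrosin-EGFP; beta-Actin-EGFP (AAG). They were wild type (WT) or belonged to the Stag3 knockout lines KO1 and KO2, so every cultured group carries both EGFP transgenes and each knockout group is a single line. The remaining groups are testis germ cells of genotype Vasa-RFPTg/0, taken before birth at embryonic days 16 and 17 (E16, E17) or after birth at day 7 (P7). The in vivo groups therefore share a transgene that marks germ cells, and differ from the cultured cells in genotype as well as in age and setting. Whether replicates are separate cultures, litters or animals is not given, so each p-value reflects the spread between these libraries alone, and that spread may be technical.

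Oxidative phosphorylation makes ATP at the inner mitochondrial membrane. Complex I (NADH dehydrogenase) and complex II (succinate dehydrogenase) pass electrons by way of ubiquinone to complex III (the cytochrome bc1 complex), and cytochrome c carries them to complex IV (cytochrome c oxidase). Complexes I, III and IV pump protons, and the ATP synthase, complex V, uses the gradient. Several subunits of complex IV exist as isoforms of separate genes with a muscle, lung or testis form. The mitochondrial genome encodes further subunits of every complex except II.

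Total counts per library ranged from 1938644 to 4596607. Levels are reads per 1000000 reads of the non-mitochondrial genes that both gene lists hold (RPM), and a floor of 3 counts stood at a mean of 0.783 RPM over the WT libraries, 1.28 at E16, 1.66 at E17 and 0.959 at P7. Floors and intervals cover counting error only. The GSC, E16 and E17 tables use 1 gene list and the P7 tables another, so a difference between P7 and any other group cannot be told apart from a difference between the lists. All 86 members were matched in the P7 tables by Entrez ID, 5 of them under another symbol. The 5 germ cell markers, Stag3 among them, were all counted in every group, with summed levels of 2842 to 3956 RPM. The lowest sums were those of KO2 (2842 to 2856 RPM). Stag3, a cohesin subunit, had a mean of 403 ± 25.4 RPM in WT (SD, n = 2) and 145 ± 10.5 in KO2, with KO1 between them, and 230.4 to 527 RPM in the in vivo groups. Its 3′ tags can remain after a change elsewhere in the gene, so they check neither line. The 13 mitochondrially encoded genes held 8.82% to 10.96% of gene counts in the GSC and fetal libraries and were not analysed at P7.

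The promoters of some members hold short words that the symbol rule did not use. RefSeq promoters (GRCm38.p6, 250 bases before to 50 after the gene's start, 300 bases in all) were found for 69 of the 86 members. They were searched on both strands for 3 words bound by factors known to act on respiratory genes: GCGCA and GCGC parted by any 1 base for NRF1, CCGGAAGT for GABPA and AAGATGGCG for YY1. None of them contains another. The NRF1 word was present for 17 of 69 members (24.6%) against 5.19% of all 27025 genes with a promoter, the YY1 word for 7 (10.1%) against 1.64%, and the GABPA word for 5 (7.25%) against 4.31%. At least 1 of the 3 words was found for 27 members (39.1%) and for 10.3% of all genes. A match is a run of letters, not a measured binding site. The background holds every gene with a promoter, expressed or not, and was not matched to the members by level or base content.

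5 promoters are shown, 5′ to 3′ on the gene's strand with matches in capitals, for members whose levels moved widely between groups and which differ in what they hold. Sdhd, a membrane anchor of complex II, lies at chr9:50603800-50604099 (minus strand) and has 1 NRF1 match. Atp5h, the d subunit of the ATP synthase stalk, lies at chr11:115419870-115420169 (minus strand) and has an NRF1 match followed by a GABPA match on the opposite strand. Uqcrc1, a core protein of complex III, lies at chr9:108936398-108936697 (plus strand) and has 2 NRF1 matches. Ndufs4, an accessory subunit of complex I, lies at chr13:114388045-114388344 (minus strand) and has 1 YY1 match close to its end. Ndufa4 lies at chr6:11907401-11907700 (minus strand) and holds none of the 3 words in this window.
Sdhd: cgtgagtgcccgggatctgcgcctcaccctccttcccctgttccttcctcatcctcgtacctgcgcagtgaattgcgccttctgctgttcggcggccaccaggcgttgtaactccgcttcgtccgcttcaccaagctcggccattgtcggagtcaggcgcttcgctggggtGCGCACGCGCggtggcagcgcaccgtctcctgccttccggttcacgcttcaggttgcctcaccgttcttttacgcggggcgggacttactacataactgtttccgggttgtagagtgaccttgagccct
Atp5h: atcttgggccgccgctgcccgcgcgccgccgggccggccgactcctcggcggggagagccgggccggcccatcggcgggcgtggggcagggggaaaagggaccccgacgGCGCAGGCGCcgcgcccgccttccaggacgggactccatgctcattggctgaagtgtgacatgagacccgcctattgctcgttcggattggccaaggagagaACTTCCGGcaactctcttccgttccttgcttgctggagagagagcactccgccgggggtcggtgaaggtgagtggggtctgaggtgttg
Uqcrc1: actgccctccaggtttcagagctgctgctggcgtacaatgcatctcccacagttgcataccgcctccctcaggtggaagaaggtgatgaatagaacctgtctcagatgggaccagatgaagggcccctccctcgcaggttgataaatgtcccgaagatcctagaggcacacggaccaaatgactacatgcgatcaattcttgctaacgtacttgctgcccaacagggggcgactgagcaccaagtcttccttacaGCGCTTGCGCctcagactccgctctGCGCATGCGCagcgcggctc
Ndufs4: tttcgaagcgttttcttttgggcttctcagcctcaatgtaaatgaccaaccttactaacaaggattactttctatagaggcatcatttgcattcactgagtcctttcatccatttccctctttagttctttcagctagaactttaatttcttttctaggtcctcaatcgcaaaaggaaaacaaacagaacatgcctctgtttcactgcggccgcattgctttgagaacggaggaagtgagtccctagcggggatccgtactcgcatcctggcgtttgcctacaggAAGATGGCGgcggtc
Ndufa4: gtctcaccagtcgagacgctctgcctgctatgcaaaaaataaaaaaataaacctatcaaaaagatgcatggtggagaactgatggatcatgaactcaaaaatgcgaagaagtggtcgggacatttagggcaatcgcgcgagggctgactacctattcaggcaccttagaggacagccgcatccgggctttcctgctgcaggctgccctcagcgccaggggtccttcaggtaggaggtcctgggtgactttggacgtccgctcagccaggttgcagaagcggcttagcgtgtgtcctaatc

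Summed over all 86 members, the level was 33093 ± 1318 RPM in WT GSCs (SD, n = 2), 34007 ± 246 in KO1 and 34460 ± 312 in KO2. The in vivo means were 28180 ± 2356 (E16), 23861 ± 40.4 (E17) and 24273 ± 1058 (P7). All 6 in vivo libraries lay below all 6 cultured ones, and the 2 libraries of E16 were the furthest apart of any group (26514 and 29846). In bulk RNA, fewer cells that express a gene and less RNA per cell cannot be told apart.

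**Figure D1:**
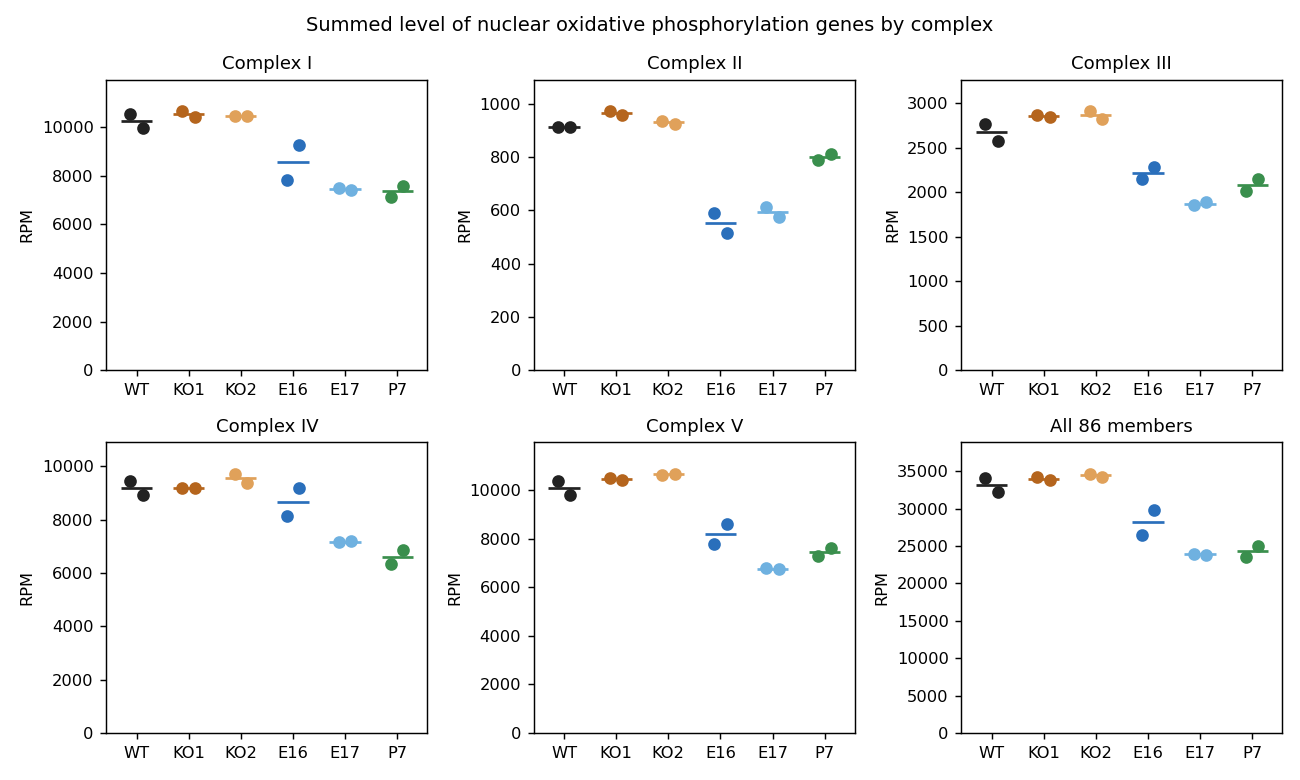
Summed level (RPM, linear axis from 0) of the members of each complex and of all 86, with 1 point per library and a bar at the group mean, for WT, KO1 and KO2 GSCs and for testis germ cells at E16, E17 and P7. Complex II was lowest in the fetal libraries (516 to 614 RPM) and complex IV at P7 (6333 to 6871 RPM), whereas the KO libraries lay near or above WT in each complex.

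The complexes did not share 1 profile over age. Complex I summed to 10232 ± 417 RPM in WT GSCs, 8553 ± 1021 at E16, 7461 ± 51.2 at E17 and 7348 ± 320 at P7. Complex II went from 912 ± 1.3 in WT to 554 ± 53.4 at E16 and 595 ± 26.5 at E17, and stood at 799.5 ± 16 at P7. The P7 libraries of complex II lay between the fetal and the WT ones. Complex III was 2673 ± 132 in WT, 2216 ± 92.8 at E16, 1871 ± 27.9 at E17 and 2080 ± 98.7 at P7. Complex IV was 9202 ± 368 in WT, 8664 ± 733 at E16, 7180 ± 35.9 at E17 and 6602 ± 381 at P7, the only complex whose E16 and WT libraries overlapped. The ATP synthase was 10074 ± 400 in WT, 8193 ± 562 at E16, 6755 ± 26.6 at E17 and 7444 ± 243 at P7. These sums are descriptions and carry no test.

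The first comparison set fetal germ cells (the mean of E16 and E17) against WT GSCs, with edgeR's quasi-likelihood test on all 12 libraries and Benjamini-Hochberg adjustment over 15827 genes. Of 82 members tested, 56 were lower and 12 higher, with a median log2 fold change of -0.53. The 12 include Ndufa4l2 and Cox6a2, which had 0 and 3 counts in WT and passed the count filter through fetal libraries, so their calls carry little weight. The background over all genes was 32.3% lower and 41.9% higher, with a median of 0.23. Among genes of at least 100 RPM the background was 49% lower and 34.2% higher, against 68.1% and 13.0% of the 69 members at that level. With ERCC spike-in totals as the scale the split became 77 higher and 2 lower, as the all-gene median moved from 0.23 to 2.87. Relative to that shift every member followed through the alternatives kept its sign. A change of scale moves all genes by nearly the same amount, so this was close to fixed beforehand and does not check the scale. The 4 members not tested, Cox4i2, Cox8b, Ndufb4b and Ndufb4c, had too few counts.

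Ndufa4 had the largest fall. It was counted at 636 and 719 RPM in WT GSCs, 81.3 and 92.9 at E16, and 63.2 and 67.2 at E17. The fetal level was 9.85-fold lower than WT (log2 fold change -3.30 ± 0.09 SE, adjusted p = 8.77e-27). At P7 it was counted at 414 and 435 RPM, above every fetal library and below every cultured one. This gene overlaps no other gene in either list, and its promoter is the one shown above without a match.

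The peripheral stalk of the ATP synthase, which holds the head still while the rotor turns, had all 4 of its genes lower in fetal cells. Atp5pb, the b subunit of the stalk, was counted at 907 and 926 RPM in WT, 81.8 and 120 at E16 and 161 and 142 at E17 (-3.01 ± 0.10, adjusted p = 1.38e-24). Atp5h, whose promoter is shown above, was counted at 392 and 347 RPM in WT, 86.8 and 109 at E16 and 114 and 118 at E17 (-1.92). The highest fetal library of each lay far below the lowest WT library. Atp5j (subunit F6) and Atp5o (the oligomycin sensitivity subunit) were lower too (log2 fold changes of -1.21 and -1.19). The rotor-side gene Atp5c1, the gamma subunit, was at 661 and 594 RPM in WT, 192 and 162 at E16 and 152 and 179 at E17 (-2.02). All 5 genes of the catalytic head and central stalk were lower, but by very different amounts: Atp5b, the catalytic beta subunit, was at -0.60 and Atp5d, the delta subunit, at -0.23. For Atp5d and Atp5e the fetal and WT libraries overlapped in RPM.

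The protein of the c ring, the rotor in the membrane, is encoded by Atp5g1, Atp5g2 and Atp5g3, and none of the 3 was lower in the fetal mean. Atp5g3 was higher (0.48 ± 0.09, adjusted p = 1.01e-05), with 853 and 847 RPM in WT and 1156 to 1586 in the 4 fetal libraries. Atp5g1 (0.00, adjusted p = 0.994) and Atp5g2 (0.02, adjusted p = 0.854) did not pass; their values at the 2 fetal days are given below. Among the small membrane subunits, Atp5md, which is known for holding the enzyme in dimers, was at 343 and 360 RPM in WT and 39.4 to 53.3 in the fetal libraries (-3.00 ± 0.12, adjusted p = 8.06e-23). Taf5 overlaps Atp5md in the annotation, and it is not known whether counting used the strand, so reads of the pair are uncertain. The same holds for the 25 members that overlap another gene in the GSC and fetal list, not all of which are marked where they are named. Leaving those out, 40 of 60 members were lower and 8 higher.

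All 4 genes of complex II were lower in fetal cells, with a median of -1.04. Sdhd, whose promoter is shown above, was at 79.1 and 96.3 RPM in WT, 24.9 and 15.2 at E16 and 26.7 and 28.9 at E17 (-2.05 ± 0.16, adjusted p = 2.81e-14). Sdhc was at 269 and 241 RPM in WT and 78.2 to 106 in fetal libraries (-1.60). The catalytic genes had smaller values, -0.48 for the flavoprotein Sdha and -0.44 for the iron-sulphur protein Sdhb.

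In complex I, 25 of 37 tested genes were lower and 6 higher, the near-floor Ndufa4l2 among the higher ones. Of the 7 core genes, which encode the redox and ubiquinone-binding parts, 5 were lower and none was higher. Ndufv2, an iron-sulphur subunit, was lower (-1.80), while Ndufv1, which binds NADH, was at 294 and 289 RPM in WT and 312 to 415 in fetal libraries and did not pass (0.11, adjusted p = 0.322). Accessory genes with large falls were Ndufa1 (-2.31), Ndufa12 (-2.10) and Ndufc1 (-2.04). Ndufa1 overlaps Rnf113a1. Ndufv3, an accessory subunit beside the NADH site, was higher: 203 and 204 RPM in WT, 389 and 484 at E16 and 317 and 340 at E17 (0.76 ± 0.11, adjusted p = 1.05e-07). Ndufa8 (0.49), Ndufb11 (0.43) and Ndufb10 (0.41) were also higher.

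In complex III 5 of 8 genes were lower and 2 higher. The core protein Uqcrc1 was at 306 and 297 RPM in WT and 527 to 649 in fetal libraries (0.78 ± 0.09, adjusted p = 1.02e-09). The Rieske iron-sulphur protein Uqcrfs1 was at 134 and 101 RPM in WT and 195 to 248 in fetal libraries (0.84 ± 0.12, adjusted p = 1.02e-07). Uqcrc2, the partner of Uqcrc1 in the core, was lower (-0.96), from 128 and 122 RPM to 55.1 to 80.6. The small subunits Uqcrq (-2.13), Uqcr11 (-1.66), Uqcr10 (-1.34) and Uqcrh (-1.24) were lower too. Uqcrq overlaps Gdf9, an oocyte growth factor gene.

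**Figure D2:**
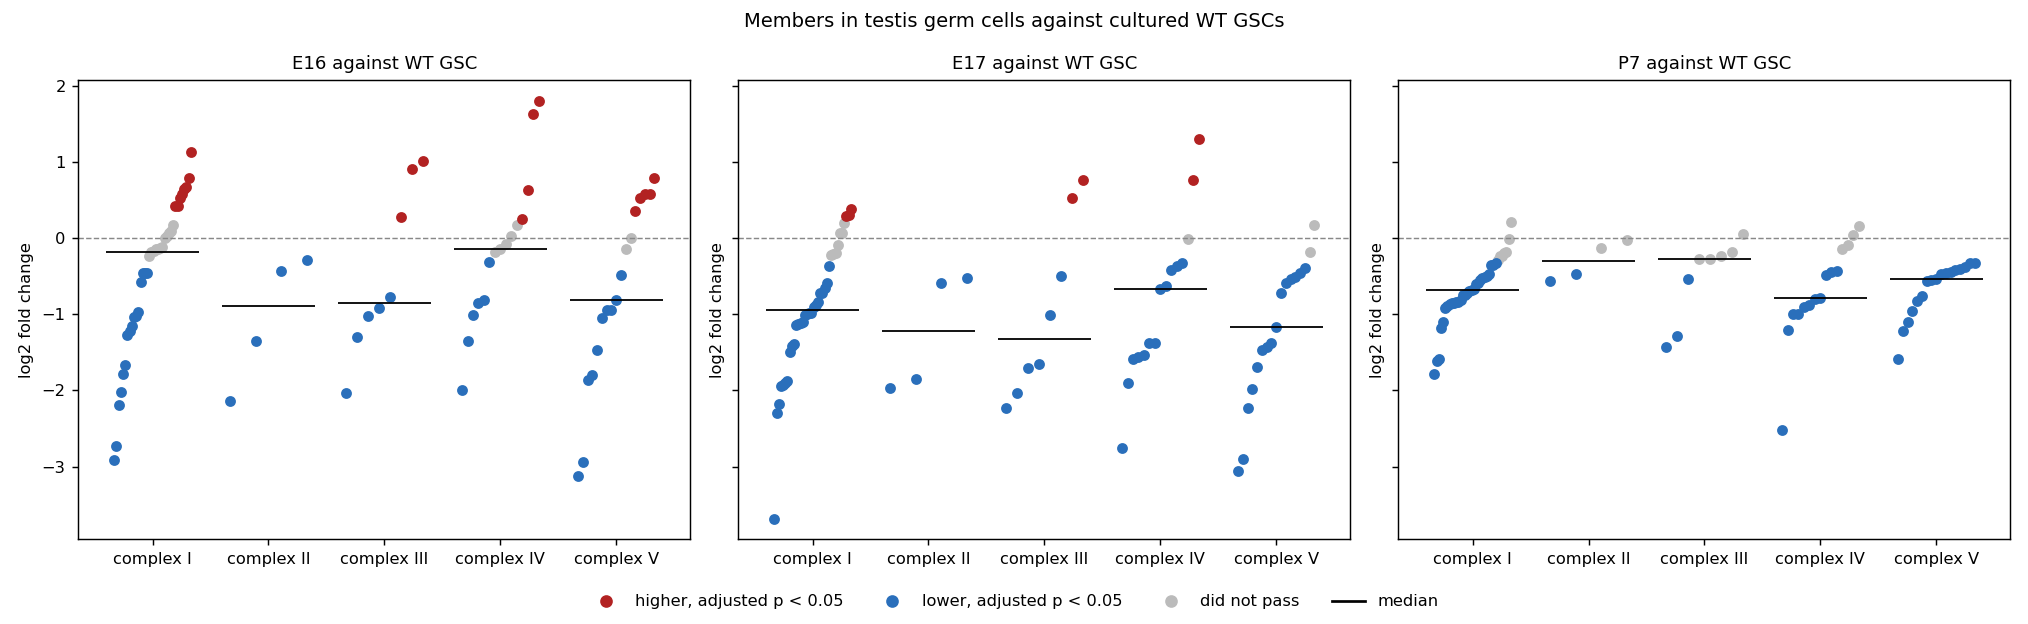
Log2 fold change of each member against WT GSCs at E16, E17 and P7, by complex, from the fit of all 12 libraries. Red and blue points passed an adjusted p of 0.05, black bars are medians, and Ndufa4l2 and Cox6a2 are left out because their fitted values rest on groups at or near 0. At P7 no point is red, while the fetal panels spread from -3.68 (Ndufa4 at E17) to 1.81 (Cox7a2l at E16).

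In complex IV 10 of 16 genes were lower and 3 higher, the near-floor Cox6a2 among the higher ones. Cox7a2l, which encodes a factor that links complexes III and IV into supercomplexes, was at 334 and 310 RPM in WT, 1124 and 1089 at E16 and 996 and 970 at E17. The fetal level was 2.94-fold higher (1.56 ± 0.09, adjusted p = 8e-18). Its relative Cox7a2, a subunit of the enzyme itself, was lower (-1.63), from 762 and 692 RPM to 222 to 324. The ratio of Cox7a2l to Cox7a2 counts was 0.439 and 0.448 in WT, 3.36 to 4.89 in the fetal libraries, and 0.987 and 0.873 at P7. These are ratios of counts within a library, not of molecules. Cox7a2 overlaps Tmem30a in both gene lists, so its reads are uncertain as well.

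The tissue isoforms of complex IV did not move as 1 set. Cox8c, a testis form, was at 17.7 and 29.2 RPM in WT and 46.4 to 77.3 in fetal libraries (1.20 ± 0.21, adjusted p = 4.22e-06). Cox6b2, another testis form, was at 33.3 and 33.4 RPM in WT and 4.06 to 9.97 in fetal libraries (-2.38 ± 0.26, adjusted p = 3.72e-10). Cox7b2, known from testis as well, was at 180 and 195 RPM in WT and 71.9 to 106 (-1.20). The muscle form Cox7a1 did not pass (0.08, adjusted p = 0.744), with 24.0 and 28.2 RPM in WT and 26.1 to 37.8 in fetal libraries. The common forms Cox6b1 (-1.28), Cox5a (-1.12) and Cox7c (-0.84) were lower, and Cox4i1 did not pass (-0.04, adjusted p = 0.684), with 1745 and 1623 RPM in WT and 1652 to 2077 in fetal libraries.

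3 genes of muscle, lung or low-oxygen forms were close to the floor. Ndufa4l2 had 0 counts in WT and P7 and 21 in the fetal libraries together, which is at least 3.45-fold higher than WT. Of these, 16 were at E17 and 5 at E16, where the mean of 0.956 RPM was below the floor. The KO2 libraries had 1 and 4 counts, a mean of 0.691 RPM against floors of 0.811 and 0.834 RPM. So few reads do not settle whether cultured cells express the gene. Cox4i2, a lung form, had 0 in WT and P7 and 20 in the fetal libraries, at least 3.03-fold higher. Cox6a2, a muscle form, had 35 counts in the fetal libraries against 3 counts in WT; in RPM the ratio was 10.6, with a 95% interval from counting of 3.33 to 53.7. Ndufa4l2 overlaps Shmt2, Cox4i2 overlaps Bcl2l1 and Cox6a2 overlaps Itgad. Markers of other cell types differed between the same groups. All 4 myoid markers were counted in fetal libraries, at a summed 53.9 to 71.9 RPM against 4.74 to 7.63 in WT and 9.56 to 20.1 at P7. All 4 endothelial markers summed to 29.4 to 51.6 RPM in fetal libraries, 5.24 to 6.27 in WT and 17.04 to 18.1 at P7.

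Sertoli markers (11 of 12 counted, Amh at 0) summed to 146 to 169.5 RPM in fetal libraries, against 27.8 to 33.7 in WT with Amh, Fshr, Gata1 and Rhox8 at 0, and 71.2 to 102 at P7 with Amh at 0. Leydig markers (5 of the 6 listed were in the tables) summed to 31.8 to 40.6, 1.91 to 2.25 and 2.79 to 8.57 RPM in the same order, with 4 of them at 0 in WT and 2 at 0 at P7. Erythroid markers (6) summed to 91.6 to 274 RPM in fetal libraries, 0.25 to 0.27 in WT with 5 at 0, and 12.5 to 82.7 at P7. Macrophage markers (4) reached 11.6 RPM at most. Fibroblast and feeder markers (8) summed to 311 to 520 RPM in fetal libraries, 248 to 254 in WT and 369 to 384 at P7. The part of other cell types in the members' levels was not tested.

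By day, 41 members were lower and 22 higher at E16 than in WT, and 63 were lower and 9 higher at E17. Over all genes 29.8% were lower and 40.1% higher at E16, and 30.1% and 39.8% at E17. Both days share the WT libraries with each other and with every comparison against WT. The difference between the days was tested directly by fitting the in vivo libraries alone, 6 in all and 14776 genes.

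From E16 to E17, 37 of 81 members fell and none rose, with a median log2 fold change of -0.49. In the background 4.96% of genes fell and 1.64% rose, and among genes of at least 100 RPM 25.8% fell and 1.24% rose, against 55.2% and 0.0% of the 58 members at that level. At an unadjusted p of 0.05, 55 members were lower and 1 was higher, and DESeq2 called 38 lower and 0 higher. By complex, 15 of 36 genes fell in complex I, 0 of 4 in II, 4 of 8 in III, 10 of 16 in IV and 8 of 17 in V. These counts rest on the scale and on few libraries. With library totals in place of TMM, a scaling that centres most genes on no change, 10 fell and 3 rose as the all-gene median moved from 0.01 to 0.35, and with ERCC totals all 81 were higher as it moved to 3.03. The number that fell was 9 without E17 replicate 1, 12 without E17 replicate 2 and 56 without E16 replicate 1. The 9 genes lower in every fit other than the ERCC one were Cox7b, Ndufs4, Atp5g1, Atp5g2, Cox7c, Uqcrh, Ndufa11, Ndufa6 and Uqcrb.

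2 of them fell about 4-fold. Cox7b, an X-linked subunit of complex IV, was at 343 and 386 RPM at E16 and 106 and 101 at E17, a 4.47-fold fall (-2.16 ± 0.15, adjusted p = 2.7e-06). Ndufs4, whose promoter is shown above, was at 354 and 454 RPM at E16 and 123 and 123 at E17, a 4.17-fold fall (-2.06 ± 0.16, adjusted p = 5.44e-06). For both genes the WT libraries (240 and 244 RPM for Cox7b, 263 and 268 for Ndufs4) lay between the days. At P7 Cox7b was at 236 and 261 RPM and did not differ from WT by the test (-0.10, adjusted p = 0.56), and Ndufs4 was at 233 and 224, lower than WT (-0.35, adjusted p = 0.0198). Between the 2 fetal days the endothelial marker sum went from 29.4 to 30.7 RPM at E16 to 48.8 to 51.6 at E17, that of fibroblast and feeder markers from 311 to 337 to 490 to 520, and that of erythroid markers from 140 to 274 to 91.6 to 109. Their part in the falls was not tested.

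The c ring genes followed with smaller falls. Atp5g1 was at 1414 and 1608 RPM at E16 and 837 and 864 at E17 (-1.17 ± 0.12, adjusted p = 5.05e-05). Atp5g2 was at 510 and 538 RPM and then 313 and 301 (-1.11 ± 0.13, adjusted p = 0.000127). Atp5g3 was at 1283 and 1586 RPM and then 1218 and 1156 (-0.62 ± 0.13, adjusted p = 0.00964). All 3 were higher than WT at E16 (0.58 to 0.79), while at E17 Atp5g1 and Atp5g2 were lower than WT (-0.58 and -0.54) and Atp5g3 did not pass (0.17). Of the 4 peripheral stalk genes 1 fell between the days, Atp5o (-0.48, adjusted p = 0.0486, with overlapping libraries), while Atp5pb was at 0.23 (adjusted p = 0.512) and Atp5h at -0.11 (adjusted p = 0.755). In RPM, which takes no TMM factor, Atp5h was higher at E17 (114 and 118) than at E16 (86.8 and 109), so its sign depends on the scale.

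**Figure D3:**
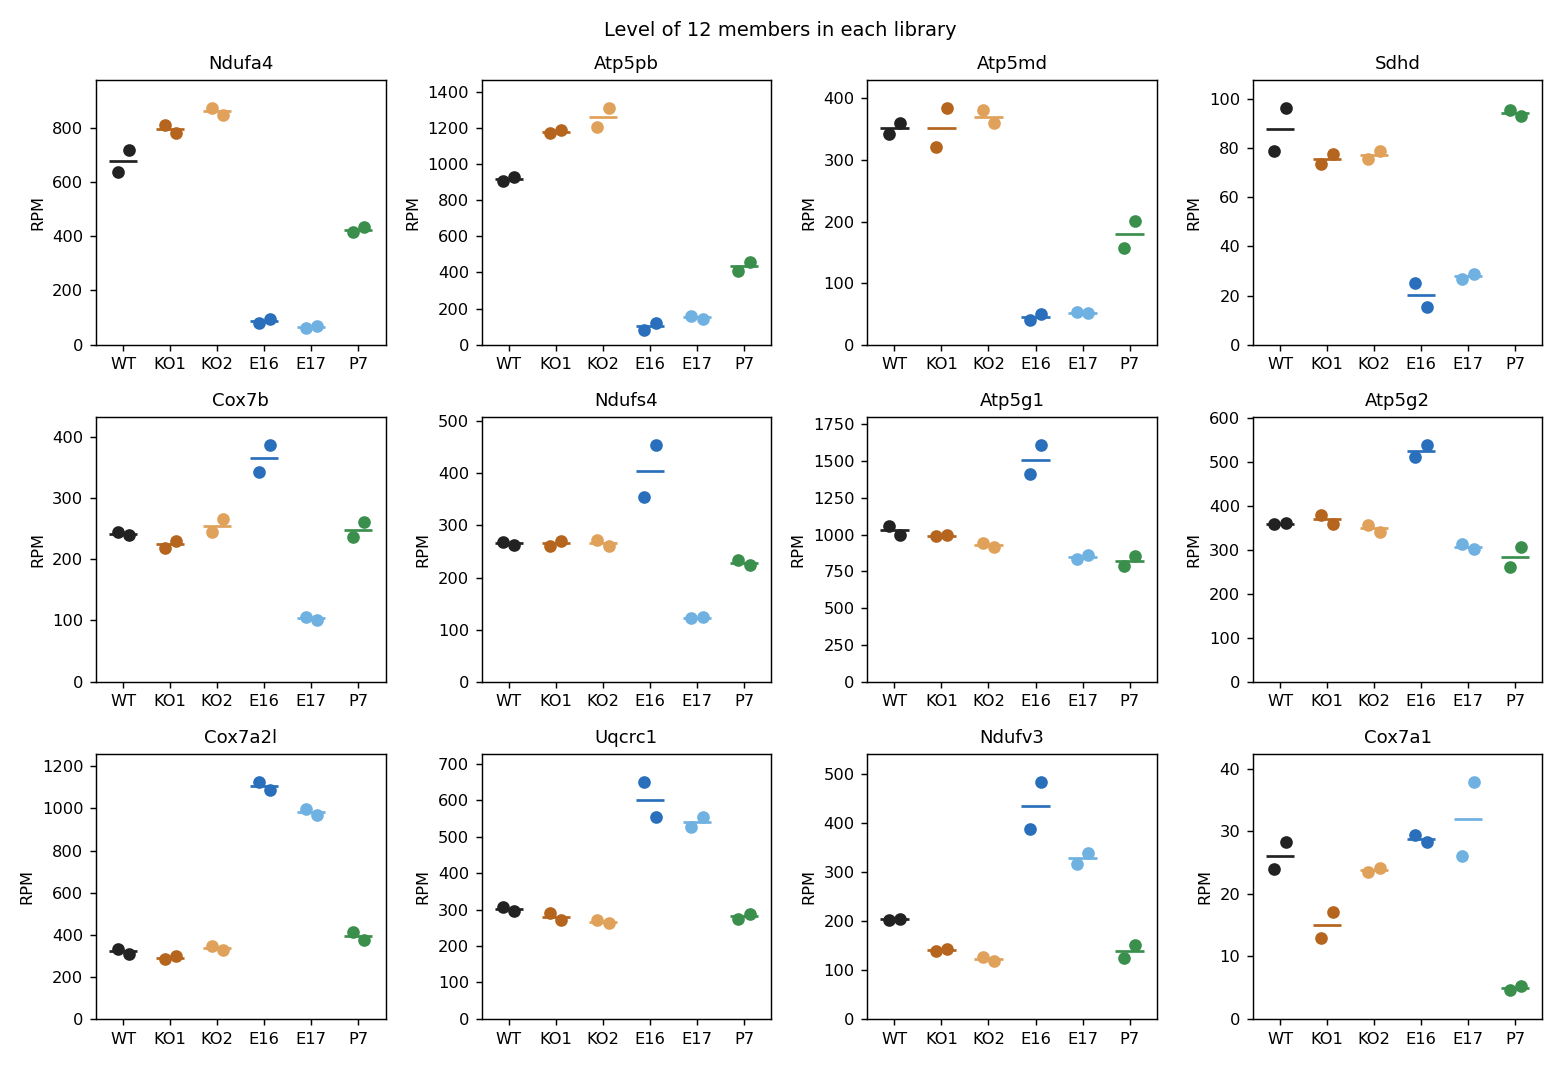
Level (RPM, linear axis from 0) of 12 members in each library, with a bar at the group mean, for WT, KO1 and KO2 GSCs and for germ cells at E16, E17 and P7. The top row shows genes low in all 4 fetal libraries, the middle row genes with E16 above and E17 below the WT libraries, and the bottom row genes high in fetal libraries, except Cox7a1, which is low at P7.

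From E17 to P7, 38 of 81 members rose and 18 fell, with a median of 0.25 against -0.13 for all genes. The background was 30.2% higher and 37.8% lower over all genes, and 50.4% and 24.9% among genes of at least 100 RPM, against 43.8% and 21.9% of the 64 members at that level. With ERCC totals, which moved the all-gene median from -0.13 to -4.81, all 81 members were lower.

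Ndufa4 rose most, from 63.2 and 67.2 RPM to 414 and 435, a 7.26-fold rise (2.86 ± 0.15, adjusted p = 1.52e-09). All 4 peripheral stalk genes rose, Atp5pb from 161 and 142 RPM to 408 and 458 (1.67 ± 0.18, adjusted p = 1.1e-06) and Atp5h from 114 and 118 to 290 and 319 (1.55). Atp5md rose from 53.3 and 50.9 RPM to 158 and 200.4 (1.94), and Atp5c1 from 152 and 179 to 503 and 557 (1.84). In complex II Sdhd rose from 26.7 and 28.9 RPM to 95.6 and 93.3 (1.92), Sdhc rose (1.36) and so did Sdha (0.38). Uqcrh (1.42), Cox7b2 (1.61), Cox7b (1.42) and Ndufs4 (1.05) rose as well.

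Among the 18 that fell, the muscle form Cox7a1 went from 26.1 and 37.8 RPM to 4.62 and 5.27, a 5.76-fold fall (-2.53 ± 0.34, adjusted p = 1.29e-05). Cox8c (-1.65), Cox7a2l (-1.16), Ndufv3 (-1.09), Uqcrc1 (-0.79) and Uqcrfs1 (-0.73) fell too. Cox6a2, also among the 18, had 23 counts at E17 and 0 at P7, at least 6.58-fold lower. Ndufa4l2 had too few counts for the test in this fit and is not among the 18; it had 16 counts at E17 and 0 at P7, at least 4.64-fold lower. The myoid and endothelial marker sums given above were lower at P7 than in fetal libraries, and their part in these falls was not tested.

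**Figure D4:**
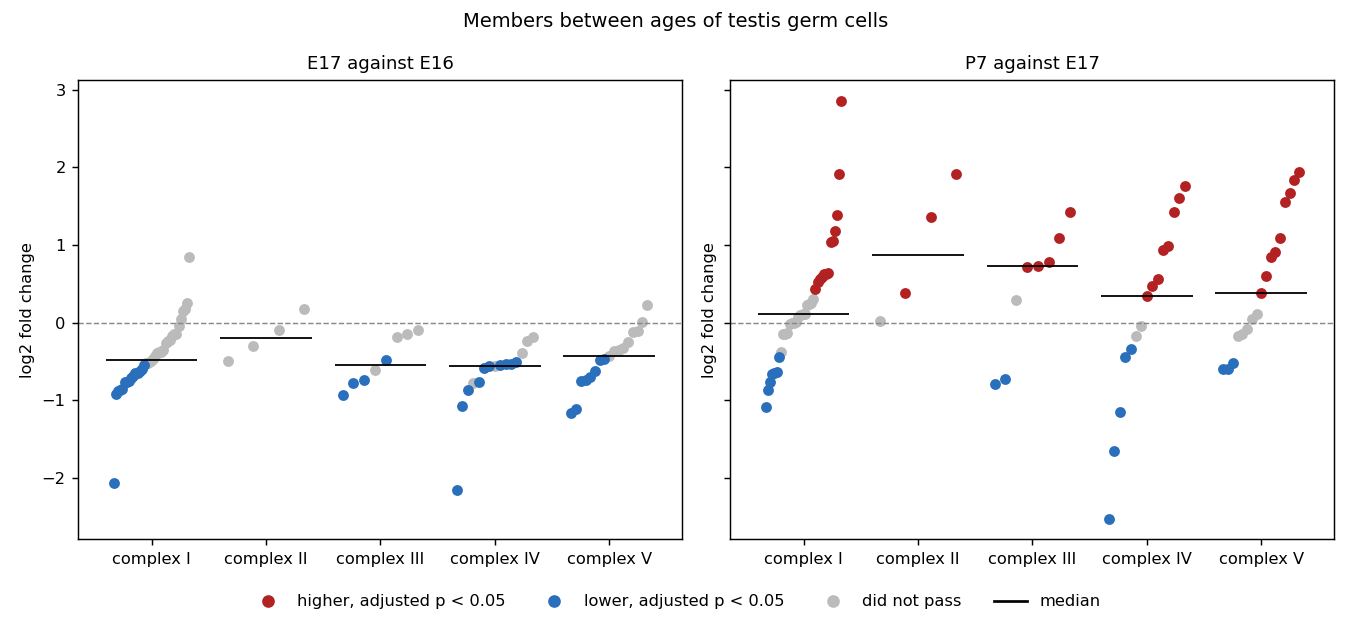
Log2 fold change of each member from E16 to E17 and from E17 to P7, by complex, from the fit of the 6 in vivo libraries with TMM scaling. Colours and bars are as in the plot against WT GSCs, and Cox6a2 is left out. Cox7b and Ndufs4 are the lowest points from E16 to E17, at -2.16 and -2.06, and Ndufa4 is the highest from E17 to P7, at 2.86.

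Against WT GSCs, P7 germ cells had 62 of 82 members lower and none higher, with a median of -0.55. The background over all genes was 15% lower and 16% higher, and among genes of at least 100 RPM 34.1% lower and 15.7% higher, against 76.4% and 0.0% of the 72 members at that level. At an unadjusted p of 0.05 no member was higher and 67 were lower, and DESeq2 called 0 higher and 63 lower. With ERCC totals 74 were lower and 0 higher, and with library totals 56 were lower and 2 higher. All 17 genes of the ATP synthase were lower, from -1.59 (Atp5k, subunit e) to -0.32 (Atp5o).

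Complex I had 29 of 37 genes lower at P7, complex IV 11 of 16, complex III 3 of 8 and complex II 2 of 4. Among those called, Cox7a1 was lowest (-2.52 ± 0.31, adjusted p = 4.88e-08), followed by Ndufa1 (-1.78), Ndufa3 (-1.61), Atp5k and Ndufa12 (-1.59). Atp5k was at 221 and 198 RPM in WT and 66.9 and 85.2 at P7. Sdhd was at 95.6 and 93.3 RPM against 79.1 and 96.3 in WT and did not pass (-0.03, adjusted p = 0.958), whereas Ndufa4 (-0.81) and Atp5pb (-1.21) were lower.

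For the last comparison, the question of whether the members' RNA depends on Stag3 in GSCs, KO1 and KO2 were averaged and set against WT (6 libraries, 11890 genes). 10 of 80 members were higher and 7 lower, with a median of -0.05. The background was 8.64% higher and 10.6% lower over all genes, and 11.3% and 15.9% among genes of at least 100 RPM, against 13.5% and 8.11% of the 74 members at that level. The counts were 4 and 4 with DESeq2, 2 and 1 with ERCC totals, 14 and 5 with library totals, and 4 and 17 without WT replicate 2.

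Ndufv3 had the largest change, 1.6-fold. It was at 203 and 204 RPM in WT, 138 and 143 in KO1 and 127 and 119 in KO2 (-0.68 ± 0.09, adjusted p = 4.41e-10). It was lower in both lines, with no overlap of libraries, and passed in the knockout mean under every alternative tried. Atp5pb was at 907 and 926 RPM in WT, 1169 and 1187 in KO1 and 1205 and 1309 in KO2 (0.36 ± 0.06, adjusted p = 2.25e-06). Cox5a, a subunit at the matrix side of complex IV, was at 650 and 662 RPM in WT, 828 and 833 in KO1 and 877 and 791 in KO2 (0.29 ± 0.06, adjusted p = 0.000256). These 3 were called in each fit that left out 1 library, and Cox5a did not pass with ERCC totals (adjusted p = 0.0831). The sums of Sertoli markers were 41.1 to 61.3 RPM in the KO libraries against 27.8 to 33.7 in WT, and their part was not tested.

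Uqcrfs1 was higher (0.42 ± 0.10, adjusted p = 0.00048), with 134 and 101 RPM in WT and 156 to 168 in the KO libraries, but at 0.20 (adjusted p = 0.185) without WT replicate 2. Ndufa4 was higher (0.24 ± 0.06, adjusted p = 0.00328), as were Uqcrc2 (0.29), Ndufa5 (0.28), Ndufb5 (0.26), Cox7b2 (0.24), Atp5j (0.19) and Atp5c1 (0.19). Ndufs6 (-0.29) and Cox7c (-0.23) were lower, and the other calls, Cox7a1 (-0.52), Ndufa13 (-0.27), Atp5j2 (-0.23) and Cox8a (-0.19), had overlapping libraries. No gene of complex II passed with edgeR. Sdhd came nearest (-0.25, adjusted p = 0.112).

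**Figure D5:**
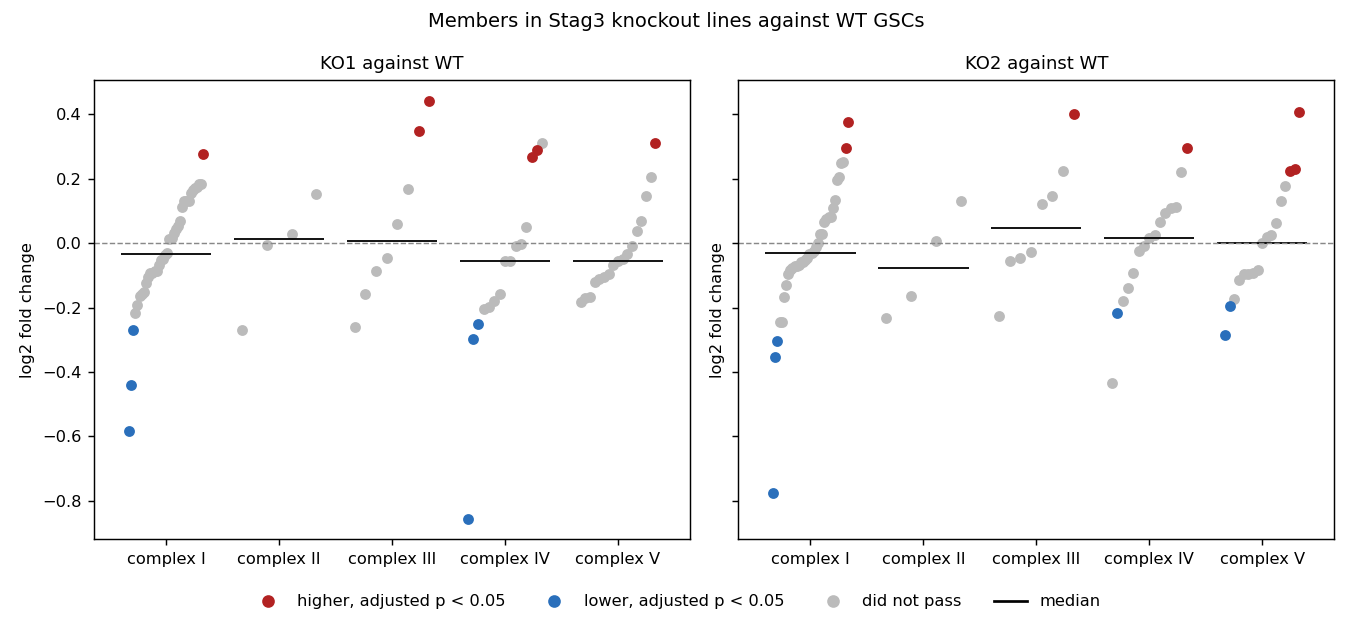
Log2 fold change of each member in KO1 and in KO2 against the same WT libraries, by complex, from the fit of the 6 GSC libraries. Colours and bars are as in the plot against WT GSCs. Ndufv3 is the lowest point of complex I in both lines, at -0.58 and -0.78, and Cox7a1 is the lowest point of KO1, at -0.86.

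By line, 6 members were higher and 6 lower in KO1 (background 6.24% and 7.4%), and 7 were higher and 6 lower in KO2 (background 7.19% and 8.45%). With library totals these counts became 11 and 5 in KO1 and 12 and 4 in KO2, and with ERCC totals 0 and 5 in KO1 and 5 and 1 in KO2. Both lines are compared with the same WT libraries. KO1 and KO2 were then compared directly, and 0 of 80 members passed in either direction with edgeR, where the background was 0.547% higher and 0.286% lower. At an unadjusted p of 0.05, 1 was higher and 8 lower in KO1, and DESeq2 called 0. Cox7a1 was at 24.0 and 28.2 RPM in WT, 13.0 and 17.1 in KO1 and 23.5 and 24.2 in KO2, and passed in KO1 (-0.86, adjusted p = 0.00785) and not in KO2 (-0.18), a difference between lines that did not pass (adjusted p = 0.269).

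Genes that work with the complexes were counted from lists chosen by function. Of 47 assembly factors tested, 31 were lower and 6 higher in fetal cells than in WT GSCs (median -1.002), where 32.3% of all genes were lower and 41.9% higher. Among the lower ones were Ndufaf8 (-3.11), a complex I assembly factor, and Coa3 (-2.59), which acts in complex IV assembly. Among the higher ones were Lrpprc (1.52), which stabilises mitochondrial mRNA, and Uqcc2 (0.64), a complex III factor. From E17 to P7 25 of 46 rose and 4 fell (median 0.75), against 30.2% and 37.8% of all genes. At P7 against WT 10 of 47 were lower and 3 higher (median -0.08), against 15% and 16%. Both counts of higher genes at P7 include Cox16 and Sco2, which were counted at 0.53 and 0 RPM in WT, 0.29 and 0 at E17, and 26.9 and 24.2 RPM at P7, where the gene list differs.

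Of 9 electron carriers and subunits outside the symbol pattern, 7 were lower (all genes, 32.3%) and none higher in fetal cells, with Cyc1 (-2.03), the cytochrome c1 of complex III, and Atpif1 (-1.46), the inhibitor of the ATP synthase, among them. Cycs, the somatic cytochrome c, was lower (-0.25), as was Cyct, its testis form (-1.41). Of 18 regulators of mitochondrial genes, 10 were lower and 2 higher in fetal cells (all genes, 32.3% and 41.9%). Nrf1 (-1.23), Gabpb1 (-1.80), Tfam (-1.42), a factor for mitochondrial DNA, and Yy1 (-0.58) were among the lower ones. From E17 to P7 8 of 17 regulators rose, including Nrf1 (1.38) and Tfam (1.01), and 2 fell (all genes, 30.2% and 37.8%). Ppargc1a, a coactivator of mitochondrial biogenesis, had no count in WT GSCs and 5.21 RPM in the fetal mean. Of 18 citric acid cycle genes, 11 were lower and 4 higher in fetal cells (all genes, 32.3% and 41.9%). In the knockout mean 3 of 45 assembly factors passed, all lower than WT (Cox14, Uqcc2 and Uqcc3 at -0.30, -0.24 and -0.45), and 1 of 16 regulators, the nuclear receptor Esrra, was lower (-0.73). Of 17 citric acid cycle genes 3 were higher (Fh1, Dlst and Idh3g at 0.27, 0.34 and 0.29) and 1, Suclg2, was lower (-0.43). Of the 9 carriers and subunits Cycs (0.24) and Etfa (0.25) were higher, and Atpif1 (-0.42) and Ndufab1 (-0.23) were lower. Over all genes 8.64% were higher and 10.6% lower in the knockout mean.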

How the data were processed

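SC3-seq libraries from polyA RNA were counted per gene by the authors, and the deposited tables hold whole-number counts. The submitters' processing notes name HTSeq 0.9.1, TopHat2 2.1.1, Salmon 1.4.0, cutadapt 1.18 and the build GRCm38.p6, without a role for each and without a strand setting. Per the labels' protocols, 1 ng of RNA was reverse transcribed and amplified, so reads are not independent molecules.

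Members and lists were chosen with earlier results of these data known. P7 genes were matched by Entrez ID. Spike-in and transgene rows were left out of library sizes. Mitochondrial rows were left out of RPM, of library totals and of the fits on genes in both gene lists. They stayed in the other fits of the GSC libraries, and in the fit of GSC and fetal libraries without P7. Tests used edgeR 4.0.16 (R 4.3.3, limma 3.58.1): TMM, filterByExpr and the quasi-likelihood test, with Benjamini-Hochberg adjustment over all genes at 0.05. The 6 GSC libraries, the 6 in vivo libraries and all 12 were fitted separately. The tests were checked on simulated counts in which 200 genes changed by 1 log2 unit. They called 76% of these for the knockout mean, 36% for E17 against E16 and 53.5% for fetal cells against WT. The 200 were drawn over all levels and every gene was given the same spread, so these rates need not hold for the members. A gene that did not pass may therefore still have changed. Named per comparison were the members with the largest called changes and non-overlapping libraries; examples of the lists and of roles were chosen after their values were seen. Alternatives were DESeq2 1.42.0, library totals, ERCC totals, no filter, a replicate block, other sets of libraries and each library left out. No pair of replicates agreed within sampling noise. Markers were summed in RPM. Single values of some genes are not reported here.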

Additional observations from a re-analysis of the deposited data

Results flagged for a closer look

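The tests of E17 and of E16 against WT GSCs gave opposite calls for 7 members, higher at E16 and lower at E17, and the 2 days were therefore set against each other directly. Both days share the WT libraries. The 7 were picked by calls from the same E16 and E17 libraries. Their fall between the days was therefore close to fixed beforehand, and its test adds no separate support. The log2 fold changes from E16 to E17, from edgeR's quasi-likelihood test, were -2.16 for Cox7b, -2.06 for Ndufs4, -1.17 for Atp5g1, -1.11 for Atp5g2, -0.77 for Uqcrb, -0.76 for Atp5l and -0.58 for Cox4i1, and all 7 passed. Cox4i1, the common form of complex IV subunit 4, was not called in 2 of the fits that left out 1 library (largest adjusted p = 0.105, without E17 replicate 1) nor with library totals (-0.24, adjusted p = 0.111). Atp5l, subunit g of the ATP synthase, was not called in 1 such fit (adjusted p = 0.0645, without E17 replicate 1). With ERCC totals all members were higher at E17 before the shift of all genes was taken off.

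In RPM, Cox7b also differed in side between the knockout lines. It was at 244 and 240 RPM in WT, below both in KO1 (219 and 230.5) and above both in KO2 (244.5 and 265). The lower KO2 library was barely above WT, and RPM takes no TMM factor. Those of the test were 0.979 and 0.986 in WT and 1.01 in both KO2 libraries, which lowers KO2 relative to WT. Whether both KO2 libraries lie above both WT ones therefore depends on the scale. The difference between the lines was -0.18 on the log2 scale and did not pass.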

How the results depend on the processing

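Groups of 2 libraries and the choice of scale limit these results. Counts of members given as higher, then lower, moved by over 1.5 times in these cases. With DESeq2 the knockout mean had 4 and 4, KO1 2 and 3, and KO2 4 higher. With ERCC totals the knockout mean had 2 and 1, KO1 0 higher, KO2 1 lower, E17 against E16 81 and 0, P7 against E17 0 and 81, and fetal cells against WT 77 and 2. With library totals KO1 had 11 and KO2 12 higher, E17 against E16 3 and 10, and P7 against WT 2 higher. With all 12 libraries in 1 fit the knockout mean had 3 and 3, KO1 0 and 3, KO2 1 and 1, and E17 against E16 1 higher.

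Leaving out each library in turn gave 4 to 13 higher and 3 to 17 lower in the knockout mean, 3 to 9 and 2 to 18 in KO1, 1 to 12 and 2 to 13 in KO2, 0 to 0 and 0 to 2 for KO1 against KO2, 0 to 2 and 9 to 56 for E17 against E16, 32 to 42 and 13 to 21 for P7 against E17, 12 to 15 and 52 to 62 for fetal cells, and 0 to 0 and 52 to 70 for P7 against WT. WT replicates are numbered as in the sample titles, while the names of the deposited files give these 2 libraries the opposite numbers. For lower members the highs without WT replicate 2 were 17, 18 and 13 in the knockout mean, KO1 and KO2. KO2 had 12 higher without WT replicate 1. The cause of these moves was not tested.

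Where ERCC or library totals moved the median of all genes by over 0.1, values of single members were taken relative to that shift. After this step a kept sign was close to fixed beforehand, so it does not check the scale. Signs changed only for members near 0 that did not pass. Against WT, fetal Cox4i1 was 0.155 with DESeq2 and -0.159 to 0.006 when 1 library was left out, and Cox7a1 was -0.085 to 0.178 in such fits. Fetal Atp5g1 was -0.018 with no filter, -0.001 with the replicate block, -0.002 without the knockout lines and -0.003 without P7, and -0.124 to 0.041 when 1 library was left out. Atp5g2 was -0.076 to 0.035 when 1 library was left out. At P7 Cox7b2 was -0.06 with ERCC totals and -0.04 to 0.083 when 1 library was left out.

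Replicate numbers are shared by groups, but deviations of same-numbered libraries correlated at only -0.014 to 0.059, so they were not taken as pairs. The block used the titles' numbers, and with the opposite WT numbers no fit was made. With the replicate block the counts were 10 and 9 in the knockout mean, 0 and 1 for KO1 against KO2, 0 and 46 for E17 against E16, 39 and 19 for P7 against E17, 13 and 56 for fetal cells, and 0 and 63 for P7 against WT.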
